A study of Mus musculus with 4 samples.

Results

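Keratins that mark the luminal cells (Krt7, Krt8, Krt18 and Krt19) and the basal cells (Krt5, Krt14, Krt15 and Krt17) of the mammary epithelium were followed across 4 arrays. The members were the probe sets whose gene symbol in the platform table is exactly one of these 8 names, and 13 of the 45037 probe sets on the array that are not controls met this rule, for 8 of 18193 genes with a symbol. Of these 13 probe sets, 11 were bright enough to be tested, and each of the 8 genes kept at least 1. The dim ones were a Krt14 probe set with signals of 48.2 to 88.2 and a Krt17 probe set with signals of 12.1 to 28.5. A further dim probe set is assigned to both Krt17 and Krt14 and was not used.

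Mammary tissue was taken from mice labelled STAT5 WT or STAT5 KO, with 2 mice and 2 arrays for each genotype. STAT5 is the transcription factor that prolactin and growth hormone activate in the mammary gland. The tissue is described as collected at 6 days, with no start point stated, and strain, age, the deleted gene part and any promoter driving the deletion are not given in the sources used here. The tissue was whole, so fat, stroma and muscle contribute RNA. On the brighter probe sets, Stat5a read 2307 and 2061 in the WT mice, against 1836 and 861 in the KO mice (limma adjusted p = 0.246), each pair in the order replicate 1 and replicate 2 as throughout. Stat5b read 1522 and 1506 in the WT mice, against 1069 and 712 in the KO mice (adjusted p = 0.102). Both genes still gave signals on the arrays labelled KO. Between arrays of 1 genotype Pearson's r of log2 values across probe sets was 0.980 to 0.981, and between genotypes 0.968 to 0.973. These points are probe sets, not independent replicates.

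Keratins are the intermediate filament proteins of epithelial cells. Each filament is built from a type I keratin (here Krt14, Krt15, Krt17, Krt18 and Krt19) joined to a type II keratin (here Krt5, Krt7 and Krt8). In the mammary duct the inner, luminal layer contains Krt8 and Krt18 together with Krt7 and Krt19, and the outer, basal layer of contractile myoepithelial cells contains Krt5 and Krt14, with Krt17 and, in part of the cells, Krt15. Luminal progenitors and cells of the growing end buds can carry keratins of both sets. In RefSeq (GRCm38.p6) the type I members Krt15, Krt19, Krt14 and Krt17 lie in this order in the keratin cluster of chromosome 11. Krt7, Krt5, Krt8 and Krt18 lie in that of chromosome 15, where Krt18, a type I gene, is the direct neighbour of its partner Krt8.

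Of the 8 keratins 1 passed the test. Krt7 rose about 2-fold in KO tissue, and the other luminal keratins showed no difference that passed. All 4 basal keratins were low on KO replicate 1, at 11.9% to 42.1% of the WT mean signal, but lay between 83.9% and 163% of it on KO replicate 2. None of the 4 passed the test between the genotypes. Over all 11360 tested genes, 2.57% passed in either direction and 1.21% were higher and 1.36% lower in KO, and the keratins gave 1 call higher and 0 lower among 8. Tissue is measured here as a whole, and fewer cells of a type cannot be told apart from less RNA per cell.

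**Figure D1:**
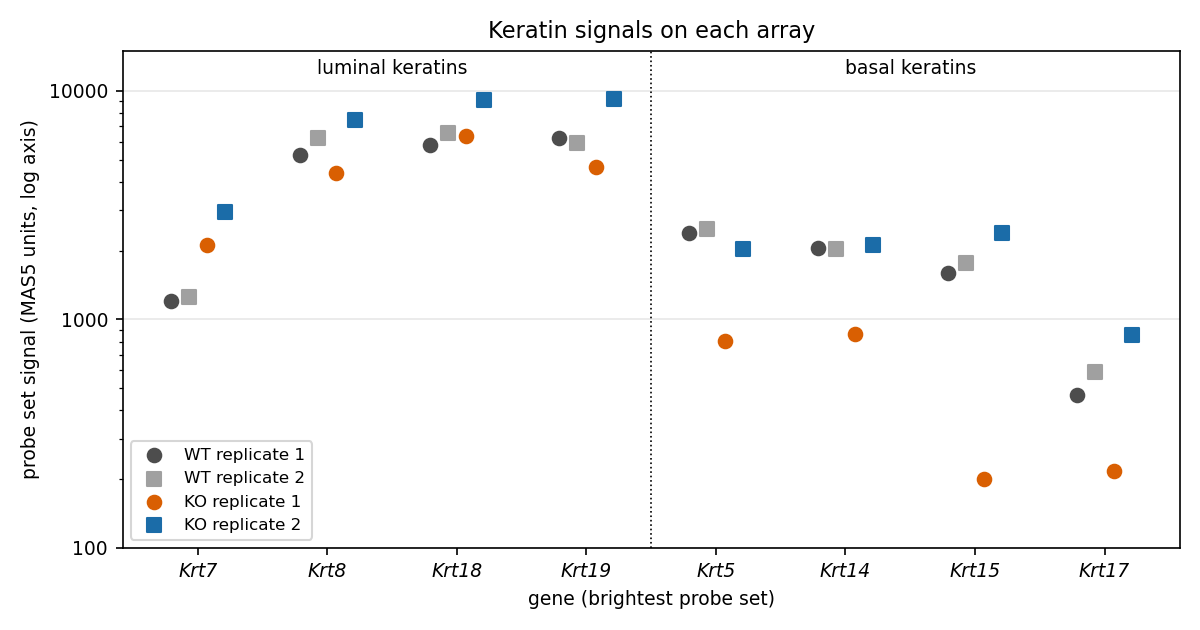
Signals of the brightest probe set of each keratin on the 4 arrays (vertical log axis, MAS5 signal units), WT in grey, KO replicate 1 in orange and KO replicate 2 in blue. Heights of different genes come from different probes and are not comparable. For Krt7 both KO points lie above both WT points, and all 4 basal keratins are lowest on KO replicate 1.

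Promoter letters were compared because Krt7 and Krt5, type II genes of the same cluster, lay on opposite sides of their WT means in KO tissue. The 250 bases before the annotated start, from RefSeq on GRCm38.p6, are given 5′ to 3′ on the strand of the gene, with matches to GCCNNNGGC, a motif of AP-2 factors, in capitals. Krt7 is on the plus strand at chr15:101412153-101412402 and Krt5 on the minus strand at chr15:101712906-101713155.
Krt7: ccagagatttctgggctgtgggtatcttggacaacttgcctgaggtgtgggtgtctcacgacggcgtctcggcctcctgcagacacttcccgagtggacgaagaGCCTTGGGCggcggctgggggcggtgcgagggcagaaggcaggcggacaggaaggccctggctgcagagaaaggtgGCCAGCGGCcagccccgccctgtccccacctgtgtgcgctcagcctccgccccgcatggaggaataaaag
Krt5: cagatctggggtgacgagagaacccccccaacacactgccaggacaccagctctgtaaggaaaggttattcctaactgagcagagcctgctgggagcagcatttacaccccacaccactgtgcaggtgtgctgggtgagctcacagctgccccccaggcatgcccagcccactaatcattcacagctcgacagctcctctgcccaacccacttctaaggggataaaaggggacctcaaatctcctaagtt
The Krt7 stretch holds 2 matches, which begin 146 and 70 bases before the start, and the Krt5 stretch holds 0. The motif reads the same on both strands. It was present in 2 of the 5 keratin promoters in the table, those of Krt7 and Krt18, and in 13.7% of all 32851 promoters of this length. These 2 were the richest of the 5 in G and C, at 66% and 60.4%, and the others were at 49.6% to 58%. The median of all promoters was 52.4%. The motif is itself rich in G and C, and the part of base composition in the matches was not tested. The STAT5 motif TTCNNNGAA, also the same on both strands, was present in 0 of the 5 and in 7.02% of all promoters. Krt8 and Krt14 are the others in the table, and Krt15, Krt17 and Krt19 were not matched. A match is a run of letters and not a measured binding site, and 250 bases leave out distant elements. The AP-2 genes Tfap2c and Tfap2a, chosen after their values were seen, were lower on both KO arrays. Tfap2c read 1056 and 1879 in the WT mice, against 458 and 654 in the KO mice (-1.34, limma adjusted p = 0.0700). Tfap2a read 411 and 390 against 242 and 322 (-0.50, adjusted p = 0.230). A link between AP-2 factors and Krt7 was not tested.

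Among the luminal keratins, Krt7 is the type II keratin of simple and glandular epithelia. Its probe set (1423952_a_at) gave signals of 1207 and 1249 on WT replicates 1 and 2 and of 2119.8 and 2953 on KO replicates 1 and 2. Both KO arrays lay above both WT arrays, which was so for 26.2% of all tested genes. The WT arrays differed by a factor of 1.03 and the KO arrays by 1.39. The mean signal rose from 1228 ± 29.8 to 2537 ± 589 (SD, n = 2), a 2.07-fold change. On the log2(signal + 16) scale, which understates changes of dim genes, the difference was 1.02 (SE 0.18, 95% interval 0.59 to 1.45, limma adjusted p = 0.0484). The adjusted p lay just under the threshold and moved above it, to 0.0545 to 0.194, in 7 of 13 alternative settings, among them those without WT replicate 1 (0.137) and without WT replicate 2 (0.194). The difference was 0.78 or more in each of the 13.

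Krt8 and Krt18 form the founding filament pair of simple epithelia. The brightest Krt8 probe set read 5248 and 6253 in the WT mice, against 4378 and 7431 in the KO mice, so that the KO arrays lay on either side of both WT arrays. Its log2 difference was -0.0060 (SE 0.25, 95% interval -0.59 to 0.58, limma adjusted p = 0.993). The other Krt8 probe sets gave -0.021 (adjusted p = 0.972) and 0.19 (adjusted p = 0.679). Both carry the suffix _x_at, which Affymetrix gives to probe sets with probes that match other transcripts too, and Krt8 has processed copies in the mouse genome, and signal from these on the probes was not tested. Krt18 read 5823 and 6523 in the WT mice, against 6354 and 9118 in the KO mice. KO replicate 1 fell between the WT arrays and KO replicate 2 lay above both. The log2 difference of Krt18 was 0.30 (SE 0.18, 95% interval -0.14 to 0.74, limma adjusted p = 0.420).

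Krt19, the smallest type I keratin and one that also marks progenitor cells of several glands, stood at 6198 and 5921 on the WT arrays. On KO replicates 1 and 2 it stood at 4662 and 9206, the widest gap between KO arrays among the luminal keratins, with a factor of 1.97. Its log2 difference was 0.11 (SE 0.29, limma adjusted p = 0.869). Krt8 and Krt19 shared a pattern in which KO replicate 1 was lowest of the 4 arrays, at 76.1% and 76.9% of the WT mean, and KO replicate 2 highest, at 129% and 152%. Krt7 did not share it, as its lower KO array was at 173% of the WT mean.

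Set against each of the other luminal keratins on the same array, Krt7 was higher on both KO arrays. Relative to Krt18, and taking the WT mean as 0, the log2 value of Krt7 was 0.74 and 0.69 on KO replicates 1 and 2, against 0.057 and -0.057 on the WT arrays. Relative to Krt8 it was 1.17 and 0.88, and relative to Krt19 1.16 and 0.65. Within the pair of partners, Krt8 relative to Krt18 was -0.43 and -0.19 on the KO arrays and -0.044 and 0.044 on the WT arrays. These contrasts show unequal differences within an array and were not tested.

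The basal keratins formed a second set. Krt5 is the type II keratin of basal cells in stratified and glandular epithelia, and its probe set (1424096_at) stood at 2380.25 and 2483 on the WT arrays. On KO replicates 1 and 2 it stood at 804 and 2041, or 33.1% and 83.9% of the WT mean. Both KO arrays lay below both WT arrays, as they did for 27.5% of all tested genes, and Krt5 was the only basal keratin of which this was true. The log2 difference was -0.91 (SE 0.38, 95% interval -1.82 to -0.0036, limma adjusted p = 0.254).

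Krt14 is the type I partner of Krt5 in basal and myoepithelial cells. Its brightest probe set, again one with the suffix _x_at, read 2049 and 2029.8 in the WT mice, against 859 and 2118 in the KO mice. KO replicate 2 was level with the WT arrays at 104% of their mean, and KO replicate 1 was at 42.1%. The log2 difference was -0.59 (SE 0.37, limma adjusted p = 0.439), and a second Krt14 probe set without that suffix gave -0.60 (adjusted p = 0.401) with signals of 1425 and 1229 on WT and 575 and 1311 on KO. Krt14, Krt16 and Krt17 are close in sequence and neighbours on the chromosome, and signal of one of them on the probes of another was not tested. Relative to Krt14, and taking the WT mean as 0, Krt5 was at -0.35 and -0.30 on the KO arrays, so the partners differed by similar amounts in animals whose absolute signals were far apart.

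Krt15, a type I keratin of basal cells that in skin marks the hair follicle bulge, varied most. It stood at 1595 and 1763 on the WT arrays, at 201 on KO replicate 1 and at 2395 on KO replicate 2, so the KO arrays held both the lowest and the highest signal. KO replicate 1 had 11.9% of the WT mean and KO replicate 2 had 143%. The KO arrays differed by a factor of 11.9, against 1.11 for the WT arrays. The log2 difference of -1.23 had a wide error (SE 0.96, 95% interval -3.50 to 1.05, limma adjusted p = 0.538).

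Krt17 is a type I keratin of myoepithelial cells and of hair follicles that is also induced in injured epidermis. It stood at 465 and 589 on the WT arrays, at 216 on KO replicate 1 and at 858 on KO replicate 2. As for Krt15, the KO arrays lay on either side of the WT arrays, at 41.0% and 163% of their mean. The log2 difference was -0.26 (SE 0.55, limma adjusted p = 0.841), while the mean KO signal was 1.02 times the mean WT signal, so the sign depended on the scale on which the arrays were averaged.

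**Figure D2:**
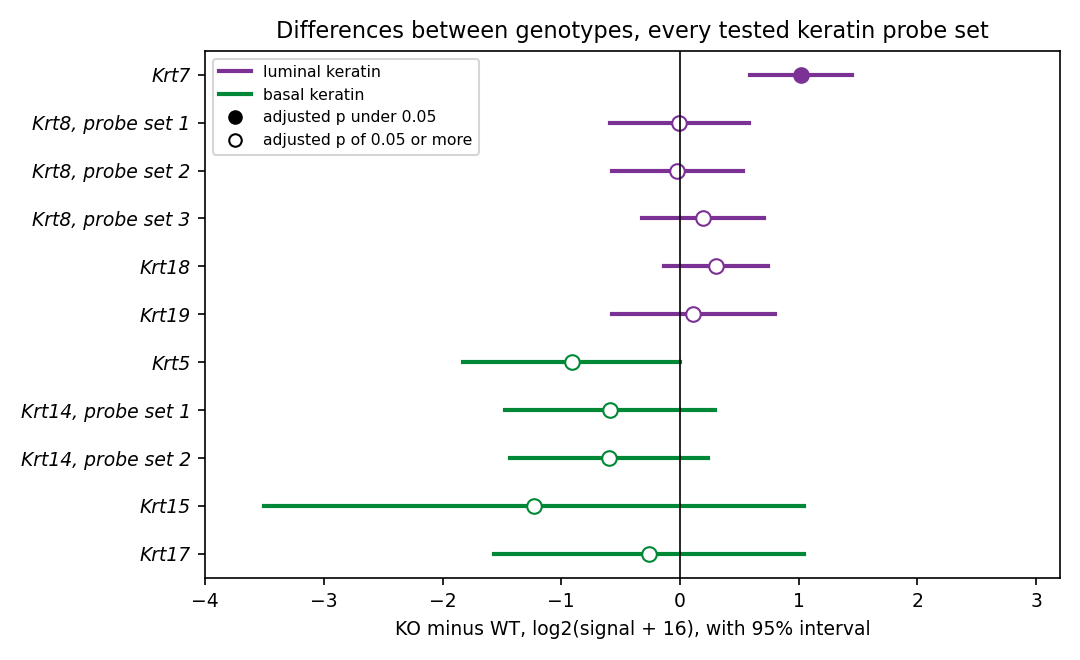
Difference between KO and WT for each of the 11 tested keratin probe sets on the log2(signal + 16) scale, with 95% intervals from limma. Luminal keratins are purple and basal keratins green, and the filled point marks the adjusted p of 0.0484 for Krt7. The intervals of the basal keratins are wide, reaching from -3.50 to 1.05 for Krt15.

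The KO mice differed from each other in the basal set. All 8 keratins had a lower signal on KO replicate 1 than on KO replicate 2, as did 55.2% of all tested genes. A gap of at least 2-fold in this direction was present in 4 of 4 basal and 0 of 4 luminal keratins, and in 1.04% of all tested genes. The ratio of KO replicate 2 to KO replicate 1 ran from 2.47 to 11.9 over the basal keratins and from 1.39 to 1.97 over the luminal ones, whereas WT replicate 2 over WT replicate 1 ran from 0.955 to 1.27 over all 8. Without KO replicate 2 the log2 differences were -1.58 for Krt5, -1.23 for Krt14, -2.97 for Krt15 and -1.22 for Krt17. Without KO replicate 1 Krt5 was at -0.25, and Krt14, Krt15 and Krt17 lay higher in KO, by 0.054, 0.51 and 0.70. In these fits the lone KO array is assumed to vary as the WT arrays do, so only the differences are given here. Krt7 was higher in both, by 0.78 without KO replicate 2 and by 1.26 without KO replicate 1.

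The median log2 difference was 0.21 over the 4 luminal keratins and -0.75 over the 4 basal keratins, against -0.0099 over all tested genes. The luminal median minus the basal median was thus 0.96. By array, taking the WT mean as 0, the luminal medians were -0.17 and 0.58 on KO replicates 1 and 2 and the basal medians -1.40 and 0.28. Luminal minus basal was 1.24 and 0.30 on KO replicates 1 and 2, against -0.0022 and 0.0022 on the WT arrays. The contrast was positive on both KO arrays, and without KO replicate 1 it was 0.30. It has no test, since these genes were chosen with results of the data known.

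Other epithelial genes gave a frame for these values. Of 21 pan-epithelial genes without keratins that were tested (adhesion, tight junction and protease genes of epithelial cells), 0 passed by limma and for 17 both KO mice lay below both WT mice, against 27.5% of all tested genes. Their median difference was -0.50, at -0.88 and -0.26 on KO replicates 1 and 2. Prss8, a membrane-anchored serine protease, had a difference of -1.17 (limma adjusted p = 0.0507), and Tjp3, a tight junction scaffold, one of -1.16 (adjusted p = 0.0744). The luminal keratins lay above this list on both KO arrays and the basal keratins below it on KO replicate 1 and above it on KO replicate 2.

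When each array was centred on the pan-epithelial genes, the median difference of all genes moved from -0.0099 to 0.51, and the share of calls higher in KO from 47.3% (138 of 292 genes) to 91.5% (964 of 1054 genes). Krt7 was then 1.54 higher in KO (limma adjusted p = 0.000821), and Krt18, Krt19 and Krt8 were 0.82, 0.63 and 0.51 higher without passing (adjusted p = 0.121, 0.219 and 0.294). Relative to the shift of all genes, Krt7 was about 1 higher as before, and Krt8 was level with it. The basal keratins were at -0.39 (Krt5), -0.068 (Krt14), -0.71 (Krt15) and 0.26 (Krt17), so Krt17 turned its sign. Centring adds the same amount to the difference of every gene, so changes of sign under it are not separate results. In this way the medians of luminal markers, basal markers and transcription factors moved from -0.50, -0.34 and -0.50 to 0.021, 0.18 and 0.024. All stayed below the median of all genes, 0.51 after centring, as they were before it. The luminal list shares genes such as Epcam with the pan-epithelial list, so its value after centring was partly built in.

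**Figure D3:**
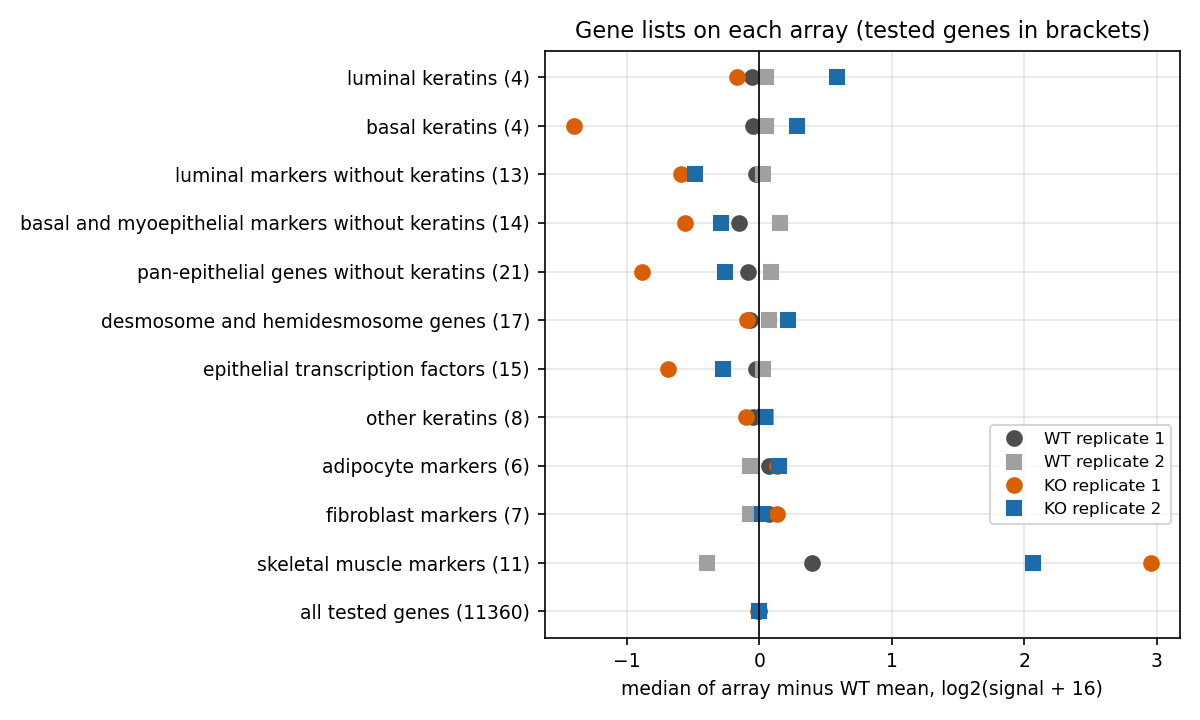
Median log2(signal + 16) of each gene list on each array minus the WT mean, with the number of tested genes in brackets. On KO replicate 1 basal keratins stand at -1.40 and pan-epithelial genes at -0.88, while luminal keratins stand at -0.17. On KO replicate 2 both keratin sets stand above the WT mean.

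Luminal markers other than keratins had a lower median than the luminal keratins. Of 13 tested, 2 fell, 1 rose and 10 did not pass, beside 1.36% lower and 1.21% higher over all tested genes. Both KO mice lay above both WT mice for 3 and below for 7, against 26.2% and 27.5% of all tested genes. The median was -0.50, with -0.60 and -0.48 on KO replicates 1 and 2. Muc1, the mucin of the luminal surface, fell from signals of 1111 and 1029 on the WT arrays to 423 and 434 on the KO arrays (-1.29, limma adjusted p = 0.0203), and Elf5, a factor of alveolar luminal cells, fell by 1.10 (adjusted p = 0.0324). Foxa1, the oestrogen receptor cofactor of hormone-sensing luminal cells, rose from 1378 and 1776 to 3081 and 3575 (1.08, adjusted p = 0.0369), beside 1.02 for Krt7. Without WT replicate 1 or WT replicate 2 these calls were lost, with adjusted p of 0.0681 and 0.0912 for Muc1, 0.0855 and 0.160 for Elf5 and 0.0963 and 0.0839 for Foxa1. Cldn4, a claudin chosen after its values were seen, was also higher on both KO arrays, at 1894 and 2459 against 1095 and 1237 (0.88, adjusted p = 0.0546).

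Of 14 basal and myoepithelial markers other than keratins, 1 fell and 13 did not pass, beside 1.36% lower over all tested genes. For 7 of the 14 both KO mice lay below both WT mice and for 0 above, against 27.5% and 26.2% of all tested genes. On KO replicate 1 all 14 were below the WT mean, and on KO replicate 2 8 were below it and 6 above. Their median difference was -0.34, with -0.56 without KO replicate 2 and -0.21 without WT replicate 2, and KO replicate 1 minus KO replicate 2 had a median of -0.50 over them, beside -1.62 over the 4 basal keratins. The oxytocin receptor gene Oxtr, through which myoepithelial cells contract, fell from 3000.0 and 2621 to 1394 and 1631 (-0.89, limma adjusted p = 0.0425; its other tested probe set gave -0.52, adjusted p = 0.178). The call of Oxtr was lost without WT replicate 1, WT replicate 2 or KO replicate 1 (adjusted p = 0.139, 0.153 and 0.0631). Only 1 of the 14, the laminin chain gene Lamb3, was at least 2-fold lower on KO replicate 1 than on KO replicate 2. The contractile genes Acta2, Cnn1, Myh11 and Tagln, which vascular smooth muscle also expresses and which were chosen after their values were seen, lay at 61.6% to 74.6% of the WT mean on KO replicate 1 and at 102% to 119% on KO replicate 2, while Trp63, Cdh3 and Lama3, also so chosen, stayed at 65.3% to 70.6% on KO replicate 2. Each of these 4 contractile genes was thus below the WT mean on KO replicate 1 and above it on KO replicate 2, as Krt14 was. Mylk and Actg2, further contractile genes of the list and also so chosen, lay at 78.9% and 91.7% on KO replicate 1. On KO replicate 2 Mylk stayed below the WT mean, at 89.5%, and Actg2 was at 122%. Itgb4, an integrin gene of the list that is not contractile and was also so chosen, lay at 87.9% on KO replicate 1. It was at 141% on KO replicate 2, so the list did not divide cleanly into contractile and other genes.

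Desmosomes and hemidesmosomes anchor keratin filaments to the cell membrane. Of 17 such genes tested, 1 rose, 0 fell and 16 did not pass, beside 1.21% higher and 1.36% lower over all tested genes. Itga6 and Itgb4 are also on the list of basal markers. The median was 0.15 and turned to -0.094 without KO replicate 2. Eppk1, which encodes the keratin-binding plakin epiplakin, rose from 373 and 495 on the WT arrays to 1019 and 1376 on the KO arrays, by 1.43 (limma adjusted p = 0.0333). The genotypes did not overlap, and without WT replicate 1 or WT replicate 2 the adjusted p was 0.0913 or 0.0874. Both KO arrays lay above both WT arrays for 7 of the 17 and below for 4, against 26.2% and 27.5% of all tested genes. The other plakin genes, Dsp, Evpl, Ppl, Plec and Dst, chosen after their values were seen, had differences of 0.27 to 0.54, and none passed.

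Transcription factors of the epithelium formed another list. Of 15 tested, Elf5 and Ehf fell, Foxa1 rose and 12 did not pass, beside 1.36% lower and 1.21% higher over all tested genes. Elf5, Foxa1 and Gata3 are also on the luminal list, Trp63 and Snai2 on the basal list and Grhl2 on the pan-epithelial list. Their values are the same there and are not separate results. The list median was -0.50, and for 10 of the 15 both KO mice lay below both WT mice, against 27.5% of all tested genes. The median was -0.69 without KO replicate 2 and -0.27 without KO replicate 1. Ehf, an ETS factor of epithelial cells, fell from 2378 and 2861 to 534 and 1054 (-1.78, limma adjusted p = 0.0435), and did not pass without WT replicate 1 (0.0924) or WT replicate 2 (0.197). Trp63 encodes p63, the factor that maintains basal cells and drives Krt5 and Krt14. It read 769 and 1363 in the WT mice, against 527 and 719 in the KO mice (-0.72, adjusted p = 0.236), lower in both KO mice, which differed by a factor of 1.36 beside 2.54 for Krt5 and 2.47 for Krt14. It was chosen after its values were seen. Klf5, a factor of epithelial growth also so chosen, stood at 799 and 833 on WT and at 1094 and 1391 on KO (0.59, adjusted p = 0.118). Tfap2c and Sox10, also so chosen, had larger differences in the other direction. These were -1.34 (adjusted p = 0.0700) and -1.22 (adjusted p = 0.0817), with both KO mice below both WT mice.

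The remaining keratins of the array were mostly dim. Of 40 other keratin genes, 8 were tested and 0 passed by limma at the adjusted threshold, while 32 were too dim, with signals of 0.635 to 169. Among these 32, both KO mice lay above both WT mice for 8 and below for 8, against 18.5% and 20.4% of all genes too dim to be tested. At an unadjusted p under 0.05, 3 of the 8 were found (Krt6a, Krt23 and Krt79), against 21.3% of all tested genes. Krt23, a type I keratin of glandular epithelia, read 380.2 and 649.7 in the WT mice, against 93.5 and 279 in the KO mice, a difference of -1.51 (SE 0.47, limma adjusted p = 0.147). Without KO replicate 2 the difference of Krt23 was -2.23. Krt6a, a type II keratin of activated and end bud epithelium, read 51.5 and 120.4 in the WT mice, against 197 and 263 in the KO mice, a difference of 1.34 (SE 0.36, limma adjusted p = 0.106). Centred on epithelial genes it passed at 1.87 (adjusted p = 0.000104), in a setting where 964 of 1054 calls were higher in KO. That centring raises the difference of every gene by the same amount. Krt79, chosen after its values were seen, stood at 222 and 209.97 on WT and 341 and 381 on KO (0.70, adjusted p = 0.0943).

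Profiles most like those of the brightest member of each set were sought among all tested genes, by the Euclidean distance between mean-centred log2 values over the 4 arrays. Nearest to Krt18 were Slc25a20 (0.064), Zbtb39 (0.076) and Mycn (0.079), and nearest to Krt5 were Unc5a (0.134), Lamb3 (0.175) and Nrtn (0.184). Lamb3 read 1695 and 1749 in the WT mice, against 572 and 1259 in the KO mice. With 4 arrays many genes lie close by such a measure, and the distances are descriptions.

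Keratins are also made outside the mammary epithelium, and markers of those cells were read beside them. Of 20 epidermis and hair follicle markers 5 were tested and 0 passed by limma, and their summed signal was 2187 to 2719 on the WT arrays and 1867 and 2715 on KO replicates 1 and 2. The 15 that were too dim had signals of 0.635 to 207, among them the epidermal genes Krt1 (10.5 to 38.3), Flg (0.792 to 15.4) and Krtdap (13.6 to 27.3). Krt10, the type I partner of Krt1 in epidermis, was brighter, with 457 and 308 in WT mice beside 268 and 295 in KO mice (-0.40, limma adjusted p = 0.386). Lor, which encodes the cornified envelope protein loricrin, gave 162 and 133 in WT mice beside 183 and 181 in KO mice (0.28, adjusted p = 0.517). Cdsn was tested too (-0.060, adjusted p = 0.958), and these 6 were chosen after their values were seen. Lgals7, the galectin of stratified epithelia, stood at 781 and 732 on the WT arrays, at 58.8 on KO replicate 1 and at 583 on KO replicate 2 (-1.87, adjusted p = 0.276), a gap between KO mice of 9.91-fold beside the 11.9-fold gap of Krt15. Sbsn, another gene of stratified epithelium, read 665 and 474 in the WT mice, against 719.9 and 1075 in the KO mice (0.63, adjusted p = 0.224).

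Mesothelium also makes Krt7, Krt8, Krt18 and Krt19. The mesothelial genes Msln, Upk3b and Wt1, chosen after their values were seen, were at 3.96 to 32.1 over the 4 arrays, while another untested marker reached 140. The 6 mesothelial markers summed to 336 and 335 in the WT mice, against 340.3 and 376 in the KO mice. Lrrn4, the only one tested, read 137 and 81.5 in the WT mice, against 160 and 152 in the KO mice (0.49, limma adjusted p = 0.374). Skeletal muscle markers moved with genotype. Of 11 tested, 5 rose and 0 fell, beside 1.21% higher and 1.36% lower over all tested genes. Their median difference was 2.51. The signals of all 12 muscle markers on the array summed to 3514 and 1672 in the WT mice, against 12735 and 7039.6 in the KO mice. Myh4, a fast myosin, rose by 3.30 (adjusted p = 0.0138), Tnnc2 by 2.85 (0.0297), Myh1 by 2.51 (0.0395) and Pvalb by 2.34 (0.0451). Without WT replicate 2 the adjusted p of these 4 were 0.0538, 0.0789, 0.153 and 0.189, all above the threshold, and without WT replicate 1 that of Pvalb was 0.0661. Muscle signal was thus highest on the array where the basal keratins were lowest, and its part in the keratin values was not tested. Adipocyte and fibroblast markers had medians of 0.11 and 0.072, and 0 of 6 and 0 of 7 passed. Their largest differences were those of Lep (-0.76, adjusted p = 0.600), Plin4 (0.53, 0.0886), Pdgfra (0.30, 0.239) and Dpt (0.19, 0.505).

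**Figure D4:**
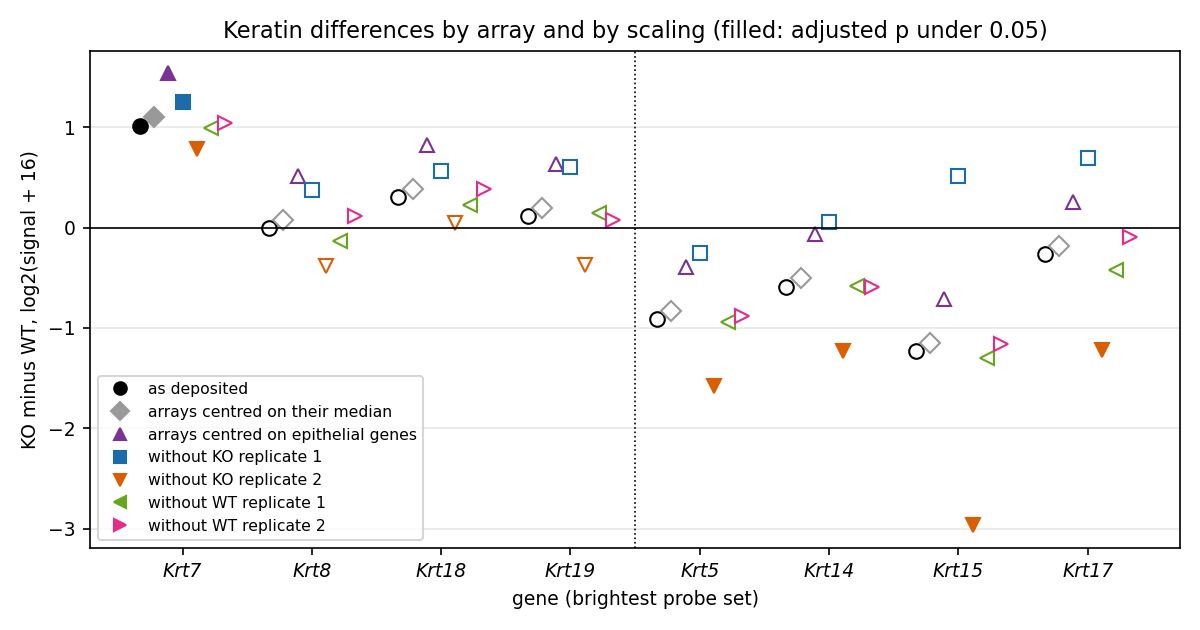
Difference between KO and WT of each keratin on the log2(signal + 16) scale under 7 settings, with filled symbols where the adjusted p was under 0.05. Krt7 is above 0 in all 7 and open without either WT array. No basal keratin is filled in the settings that keep both KO arrays. Where a KO array is left out, the lone KO array is assumed to vary as the WT arrays do. Filled symbols there are not read as calls. Without KO replicate 1, 3 of the basal keratins change sign.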

How the data were processed

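Total RNA from mammary tissue of 4 mice was hybridised to 1 Affymetrix array each, and the deposited table holds 1 signal intensity per probe set, made by the authors with MAS5 per the submitters' processing notes, with version and settings not given in the sources used here. The trimmed mean of the deposited intensity values (2% cut at each end) was 500.002 on each of the 4 arrays, a common scaling by the authors. Detection calls were not used here.

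Intensities were transformed as log2(signal + 16), 64 control probe sets were left out, and the 22519 probe sets at or above the median mean log2 value of the other 45037 (7.15, a signal of 126) were tested with limma 3.58.1 in R 4.3.3, fitted over the whole table, with a trend in the variance and Benjamini-Hochberg adjustment. The threshold was an adjusted p of 0.05. A gene was represented by its brightest probe set. Exact permutation of 2 against 2 mice reaches no two-sided p under 0.333, so none was run. Symbols came from the platform annotation, and all 13 keratin probe sets matched the same symbol in RefSeq through their Entrez identifiers. Arrays carry no replicate number in the labels, and replicates were numbered in order of deposit.

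The 8 keratins, the 11 comparison lists and the tests were chosen with earlier results of these data known. All members were to be described. From each comparison list, up to 4 genes past the threshold with the smallest p were named or, where none passed, up to 2 with the largest difference, and for the brightest luminal and the brightest basal keratin the 3 genes with the most similar profile. A gene outside this rule is marked as chosen with its values known. Alternatives covered the pseudocount, scaling, filter, variance trend, probe set summary and each array left out.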

Additional observations from a re-analysis of the deposited data

How the results depend on the processing

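The number of arrays, 2 per genotype, limits the precision, and signal over background was not available. No paired analysis was possible because the labels give the arrays no replicate numbers. Over 13 alternatives the 292 genes that passed became 127 under the 75th percentile filter, 27 without a filter, 174 for probe set means, 137 without the trend and 1054 under centring on epithelial genes, and 44 to 599 after leaving out 1 array. With median centring 61.7% of calls were higher in KO, against 47.3%. The number of keratins that passed was 0 under quantile normalization, the 75th percentile filter and probe set means, and 0 without a filter or without the trend. It was 0 to 5 after leaving out 1 array, with 0 without WT replicate 1, 0 without WT replicate 2 and 5 without KO replicate 2. Luminal minus basal was 0.93 to 0.97 over the settings that kept all arrays and tested all 8 keratins, and 0.30 to 1.24 after leaving out 1 array.

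Krt8, with a difference near 0, changed sign to 0.51 centred on epithelial genes, 0.055 for probe set means and 0.076 for median centring, and lay between -0.39 and 0.37 after leaving out 1 array (0.12 without WT replicate 2). Krt17 changed sign to 0.26 centred on epithelial genes. After leaving out 1 array the differences spanned -1.23 to 0.054 for Krt14, -2.97 to 0.51 for Krt15, -1.22 to 0.70 for Krt17, -0.38 to 0.60 for Krt19 and -1.95 to 0.43 for Lep, and the sign of each turned with the choice of KO array. The calls of Elf5, Foxa1, Ehf, Eppk1, Oxtr and Muc1 were lost without a filter and without either WT array, and all but that of Muc1 also without the trend. Those of Elf5, Oxtr and Muc1 were lost when centred on epithelial genes, those of Ehf and Oxtr for probe set means, that of Ehf under the 75th percentile filter and that of Oxtr without KO replicate 1. Of the muscle genes, Myh4, Tnnc2, Myh1 and Pvalb lost their calls without a filter (adjusted p = 0.0682, 0.105, 0.124 and 0.134) and without WT replicate 2, Myh1 and Pvalb also without the trend (0.0535 and 0.0621), and Pvalb for probe set means (0.055) and without WT replicate 1. Where these calls were lost, the cause was not tested.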

Other observations

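Several probe sets for keratins of stratified epithelium that were too dim to be tested had both KO mice above both WT mice. Of the 32 keratin genes too dim to be tested, 8 lay above in this way and 8 lay below. The shares over all genes too dim to be tested were 18.5% and 20.4%, and only keratins that lay above are given here. They were picked after their values were seen, and the adjusted p given here come from limma with no filter on signal. Krt4, a type II keratin of mucosal epithelium, read 18.4 and 13.6 in the WT mice, against 78.8 and 109 in the KO mice, on its dimmer probe set (adjusted p = 0.121), and 46.3 and 53.4 against 94.5 and 79.8 on the other (adjusted p = 0.363). A second Krt6a probe set read 40.9 and 52.1 in WT and 199 and 349 in KO (2.17, adjusted p = 0.110). Krt16, a keratin of activated epidermis, read 12.7 and 18.8 on WT and 50.9 and 43.4 on KO (adjusted p = 0.202), and Krt78 read 70.7 and 84.8 on WT and 161 and 169 on KO (adjusted p = 0.184). None passed.

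The gap between the KO mice ran in opposite senses for the keratins and for Stat5a. Stat5a was lower on KO replicate 2 (861) than on KO replicate 1 (1836), whereas all 8 keratins were lower on KO replicate 1, as were 55.2% of all tested genes. A link between the gaps was not tested.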
